A study of Mus musculus with 12 samples.

Results

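Adam22 and 8 further genes of the ADAM family (Adam8, Adam9, Adam11, Adam15, Adam17, Adam19, Adam23 and Adam28) were followed across 2 bone marrow (BM) progenitor populations at 2 ages. The members were chosen by gene name, 9 of the 32285 genes in the count table, and Adam22 was singled out because of its measured difference with age in Ly6d- CLPs, with its age difference in MPPs also known, so its age differences are given below as a description, and no p-value is given for them. All 9 were in the table, and 7 passed the filter on low counts, while Adam23 and Adam28 did not.

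The RNA was sequenced from Ly6d- common lymphoid progenitors (CLPs), which are lymphoid progenitors of the BM that do not yet carry Ly6d, a surface marker of early B-lineage cells, and from Flk2+ multipotent progenitors (MPPs), which lie upstream of them. Both were sorted from lineage-depleted BM of the long bones of wild-type C57BL6/J mice, with no transgene, deletion or treatment in any group. The 4 groups were 1-month-old (1MO) CLPs, 3-month-old (3MO) CLPs, 1MO MPPs and 3MO MPPs, with 3 libraries each and 12 in all. The study asked how progenitors of the T-cell lineage change in young adulthood.

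ADAM proteins (a disintegrin and metalloprotease) are membrane proteins with a metalloprotease domain, a disintegrin domain that can contact integrins, and a cytoplasmic tail. The catalytically active members cut other membrane proteins close to the cell surface and so release their outer parts, a process called shedding. ADAM22, ADAM11 and ADAM23 lack a working catalytic site and are best known in the nervous system, where they are receptors for secreted LGI proteins, and ADAM22 is anchored at synapses by PSD-95, the product of Dlg4.

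The Adam22 gene lies on the minus strand of mouse chromosome 5, from 8072352 to 8368160 on GRCm38, with 24 annotated transcripts and 35 merged exons in GENCODE M21. No other annotated gene shared an exon base with it. The stretch before its start, at chr5:8368161-8368410 on the minus strand (GRCm38.p6, RefSeq), is shown because Adam22 was the family member whose level differed with age in the contrast that chose it. The capitals mark the only match to TGGGAA, the core recognised by RBPJ, the DNA-binding factor of the Notch pathway that the study examined, and the match is on the other strand and therefore reads TTCCCA here.
Adam22: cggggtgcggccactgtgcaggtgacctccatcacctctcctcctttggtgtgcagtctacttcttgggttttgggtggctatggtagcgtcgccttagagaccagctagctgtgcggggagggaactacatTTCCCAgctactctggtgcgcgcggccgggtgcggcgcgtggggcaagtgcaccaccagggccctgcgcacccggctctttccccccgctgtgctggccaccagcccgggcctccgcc
The match begins 118 bases before the start of the gene. The 4 motifs were searched on both strands in the 250 bases before each of 32851 RefSeq starts, and 21.6% of these windows held TGGGAA. The E-box CANNTG had 2 matches in the Adam22 window and at least 1 in 66.2% of all windows. The GC box GGGCGG had 0 matches, against 32.7% of windows with at least 1. The TATA motif TATAAA also had 0, against 12.4% of windows. The Adam22 window held 17 CpG, more than 76.5% of all windows, whose median was 6, and its GC content was 66.8% against a median of 52.4%. Such matches describe the sequence only. Promoter entries were found for 6 of the 9 members, and none for Adam9, Adam11 and Adam28.

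The libraries held 8889083 to 20677785 estimated counts (median 13208993). Il7r, the receptor of the lymphoid cytokine IL-7 and 1 of 7 CLP markers, was at 298.8 to 401.8 CPM in CLP libraries. In MPP libraries it was at 5.24 to 18.5 CPM. Here and everywhere below, CPM are counts per unit of library size after TMM normalisation, on the usual CPM scale. All 7 CLP markers and all 6 MPP markers examined had a count in every library of both populations, so detection does not separate them. The summed CLP markers were at 4501 to 5392.3 CPM in CLPs and 2422.1 to 3005.7 CPM in MPPs. The summed MPP markers were at 2300.7 to 2493.4 CPM in CLPs and 2820.1 to 3241.9 CPM in MPPs. Kit, which is in both lists, was at 221.8 to 377.2 CPM in CLPs and 672 to 797.3 CPM in MPPs. Some markers of other cells were lower at 3MO than at 1MO in CLPs. The summed level of 10 bone stroma markers was 301 to 683.1 CPM in 1MO CLPs and 92.4 to 120.6 CPM in 3MO CLPs, against 69 to 170.2 CPM in 1MO MPPs and 61.7 to 112.4 CPM in 3MO MPPs. The summed level of 7 B cell markers was 89.2 to 123.6 CPM in 1MO CLPs and 41.8 to 66.9 CPM in 3MO CLPs. The 10 stroma markers did not move alike. The collagen gene Col1a1 was at 133.5 to 400 CPM in 1MO CLPs and at 0 to 1.92 CPM in 3MO CLPs. Col1a2 was at 65.8 to 168.3 CPM and at 0 to 1.66 CPM. Pdgfrb, which held most of the 3MO CLP sum, was at 89.3 to 113 CPM in 1MO CLPs and at 84.7 to 120.6 CPM in 3MO CLPs. Of 4 neuronal markers, 3 (Snap25, Syt1 and Rbfox3) were at 0 in all 12 libraries, and the fourth, Map2, was at 24.2 CPM in 3MO MPP library 1 and at most 0.439 CPM elsewhere. In bulk RNA, a lower level cannot be assigned to fewer cells that express a gene or to less RNA per cell.

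Adam22 was lowest in 1MO CLPs and highest in 3MO MPPs. In 1MO CLPs it was at 6.75, 6.32 and 3.62 CPM in libraries 1 to 3, and in 3MO CLPs at 33.9, 20.7 and 38.2 CPM. The lowest 3MO CLP library thus lay above the highest 1MO CLP library. In 1MO MPPs Adam22 was at 18.1, 16.6 and 29 CPM, and in 3MO MPPs at 44.5, 38.9 and 33.5 CPM. These groups did not overlap either, although the highest 1MO library and the lowest 3MO library were close. The means were 5.56 ± 1.7 CPM in 1MO CLPs, 21.2 ± 6.81 in 1MO MPPs, 30.9 ± 9.09 in 3MO CLPs and 39 ± 5.49 in 3MO MPPs (SD, n = 3 each). In this order 1MO CLPs stood below all other libraries, whereas 1MO MPPs and 3MO CLPs overlapped, and so did 3MO CLPs and 3MO MPPs. The values rest on 260 counts summed over the 1MO CLP libraries and on 858 to 1435 in each of the other groups.

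**Figure D1:**
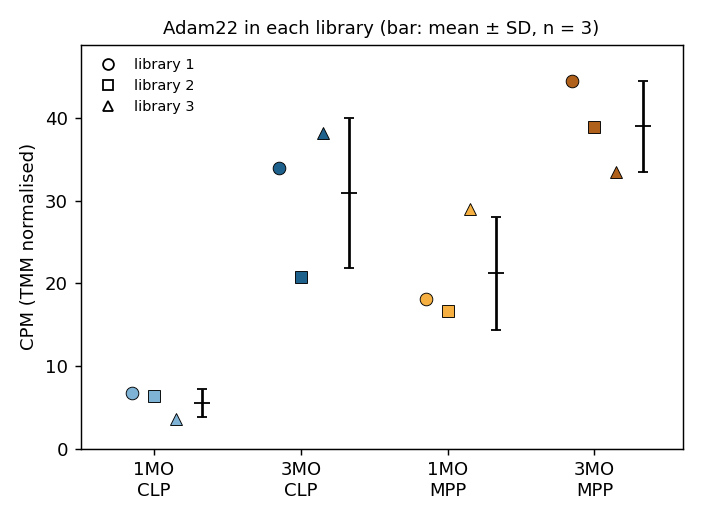
Adam22 level in CPM (TMM normalised, vertical axis) in each of the 12 libraries of the 4 groups (horizontal axis). Symbols are single libraries and bars the mean ± SD (n = 3). The 1MO CLP libraries lie between 3.62 and 6.75 CPM, and all 9 other libraries at 16.6 CPM or above.

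The fitted difference of Adam22 between 3MO and 1MO CLPs was 2.48 on the log2 scale (SE 0.34), a 5.56-fold higher level at 3MO. In MPPs the corresponding difference was 0.87 (SE 0.32), or 1.83-fold. The difference in CLPs exceeded that in MPPs by 1.60 (SE 0.46). These estimates were known when Adam22 was selected. Leaving out any 1 of the 12 libraries gave 2.24 to 2.7 in CLPs and 0.72 to 1.17 in MPPs. With age in CLPs, 10 of 13367 tested genes (0.0748%) passed an adjusted p of 0.05 in edgeR (quasi-likelihood test, p-values adjusted by Benjamini and Hochberg). Adam22 was chosen from among them, so nothing is read from its place there, and 0 of the other 6 tested members passed. Of those 6, 1 (Adam15) had an unadjusted p under 0.05, as did 5.9% of all genes. DESeq2 called 0 of the 6 and 57 genes. At edgeR's adjusted threshold the last 2 genes inside were Mapkbp1, with a log2 difference of 1.38, and Rag1, with -1.44. The first 2 outside were Ern1, with 1, and Sema3d, with -1. The stroma and B cell marker sums given above fell with age in CLPs while Adam22 rose, and their part in its difference was not tested.

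Between the populations, Adam22 was lower in CLPs than in MPPs at 1MO, with a CLP-minus-MPP difference of -1.94 on the log2 scale (SE 0.34, 95% interval -2.65 to -1.22). This is 3.83-fold lower, without overlap between the libraries, and it passed edgeR's test (adjusted p = 0.0021). At this age 719 of 13367 genes (5.38%) passed, and Adam22 was the only one of the 7 tested members that did. The call held in 12 of 12 fits with 1 library left out. At 3MO the CLP-minus-MPP difference of Adam22 was -0.33 (SE 0.32, 95% interval -1.01 to 0.34), the libraries overlapped, and the difference did not pass (edgeR adjusted p = 0.66). The CLP libraries in these comparisons are those of the contrast that chose Adam22, and its age difference in MPPs was known as well. The comparisons of Adam22 between populations are therefore not independent of the choice. The sources give 3 independent experiments per group and sorting per mouse but do not tie each library to a mouse, so the p-values here measure the spread between these libraries.

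The other members without catalytic activity behaved differently from each other in level. Adam11 was detected in all libraries, at 101.5, 37.1 and 40.9 CPM in 1MO CLPs, 58.7, 48.9 and 42.1 in 1MO MPPs, 61.6, 26.7 and 66.5 in 3MO CLPs, and 119.5, 59.2 and 48.5 in 3MO MPPs. Library 1 was the highest in 3 of the 4 groups, and every pair of groups overlapped. Its difference with age was -0.21 (SE 0.42) in CLPs and 0.60 (SE 0.42) in MPPs, neither past the threshold (edgeR adjusted p = 0.98 and 1). The CLP estimate lay between -0.46 and 0.4 with a library left out, and was positive without 1MO CLP library 1 (0.4) or 3MO CLP library 2 (0.1). The MPP estimate lay between 0.11 and 0.84, with the lowest value without 3MO MPP library 1. Adam23 had 5 counts (0.45 CPM) in 1MO CLP library 1 and 0 in the other 11 libraries. A count of 0 allows up to 3 counts, which is 0.148 to 0.329 CPM depending on the library, so lower levels of Adam23 were not detectable at this depth (counting error only).

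Among the active proteases, Adam17, which sheds tumor necrosis factor and many receptors, had 145.5, 108.4 and 106.3 CPM in 1MO CLPs and 118.8, 89.5 and 103.5 CPM in 3MO CLPs. In MPPs it was at 122.2, 119.3 and 97.4 CPM at 1MO and at 175.9, 122.4 and 127.4 CPM at 3MO. Library 1 was the highest in 4 of 4 groups. Its age difference was -0.21 (SE 0.19) in CLPs, where libraries overlapped, and 0.33 (SE 0.19) in MPPs, where the lowest 3MO library (122.4 CPM) lay just above the highest 1MO library (122.2 CPM). Neither passed edgeR's test (adjusted p = 0.94 and 1), and neither did their difference of -0.54 (SE 0.27, adjusted p = 1). At 3MO Adam17 was lower in every CLP library than in any MPP library, with a difference of -0.45 (SE 0.19) that did not pass (edgeR adjusted p = 0.22). The annotated exons of Adam17 share 311 bases with Iah1 on the opposite strand, and whether the counting used the strand is not given in the sources used here.

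Adam15, whose protein carries an integrin-binding RGD motif in human cells, was lower in CLPs than in MPPs at 3MO. Its libraries were at 22.2, 24.5 and 24.5 CPM in 3MO CLPs and at 48.4, 45 and 36.6 CPM in 3MO MPPs, without overlap. The CLP-minus-MPP difference was -0.87 (SE 0.24, 95% interval -1.38 to -0.36), a 1.82-fold lower level, and it passed edgeR's test (adjusted p = 0.043), as did 6.07% of all genes at 3MO. Adam15 was the only one of the 7 tested members called in that comparison. The call was near the threshold: it was lost in 8 of 12 fits with a library left out, with adjusted p from 0.036 to 0.13, while the difference stayed between -0.98 and -0.78. It was also lost when only the compared libraries were fitted (edgeR adjusted p = 0.095) and when libraries were thinned to the smallest total (edgeR adjusted p = 0.066). Taking CLPs and MPPs of 1 age and number as pairs ended it as well (edgeR adjusted p = 0.067). At 1MO Adam15 was at 34.7, 24.8 and 43.5 CPM in CLPs and at 52.4, 51.4 and 40.6 CPM in MPPs, and its difference of -0.49 (SE 0.24) did not pass (edgeR adjusted p = 0.34). With age it differed by -0.53 (SE 0.24) in CLPs, without overlap, and by -0.15 (SE 0.24) in MPPs, and neither passed (edgeR adjusted p = 0.84 and 1). The antisense gene 4731419I09Rik shares 1263 exon bases with Adam15, and reads of the pair cannot be told apart without strand.

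Adam9, a widely expressed protease, showed no difference between groups that passed the test. It was at 25.6, 36.3 and 33.3 CPM in 1MO CLPs, 32, 26.7 and 33.2 in 1MO MPPs, 26.1, 53.6 and 32.3 in 3MO CLPs, and 25.2, 34.6 and 29.2 in 3MO MPPs. The groups overlapped throughout, and its 4 differences between -0.05 and 0.33 did not pass (edgeR adjusted p = 0.59 to 1). The age estimate in CLPs was 0.24 (95% interval -0.35 to 0.82) and changed sign when single libraries were omitted (-0.12 to 0.43).

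Adam8, known from leukocytes and their migration, was at 7.11, 0.939 and 1.84 CPM in 1MO CLPs, 4.18, 1.1 and 3.49 in 1MO MPPs, 6.96, 1.49 and 9.41 in 3MO CLPs, and 5.71, 2.81 and 3.33 in 3MO MPPs. Library 2 was the lowest in 4 of 4 groups, and the groups overlapped. Its age difference in CLPs was 0.86 with a standard error of 0.85, and 0.42 (SE 0.85) in MPPs, and no comparison of Adam8 passed (edgeR adjusted p = 0.79 to 1). Leaving out a library moved the CLP estimate between 0.36 and 2.09.

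Adam19, a protease studied in heart development, was sparse. It was at 4.95, 1.28 and 0 CPM in 1MO CLPs, 0.241, 0 and 0.241 in 1MO MPPs, 2.22, 5.36 and 3.87 in 3MO CLPs, and 0, 4.96 and 2.34 in 3MO MPPs. The 1MO MPP libraries held 7 counts in all, against 102 in 3MO MPPs, and 1 library of the latter was at 0. The fitted age difference in MPPs of 3.78 (SE 1.69, 95% interval 0.18 to 7.37) did not pass (edgeR adjusted p = 1). The antisense genes Gm16033 and Gm16034 share 587 and 480 exon bases with Adam19. Adam28, a protease found in lymphocytes, was at 0 in all 12 libraries.

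**Figure D2:**
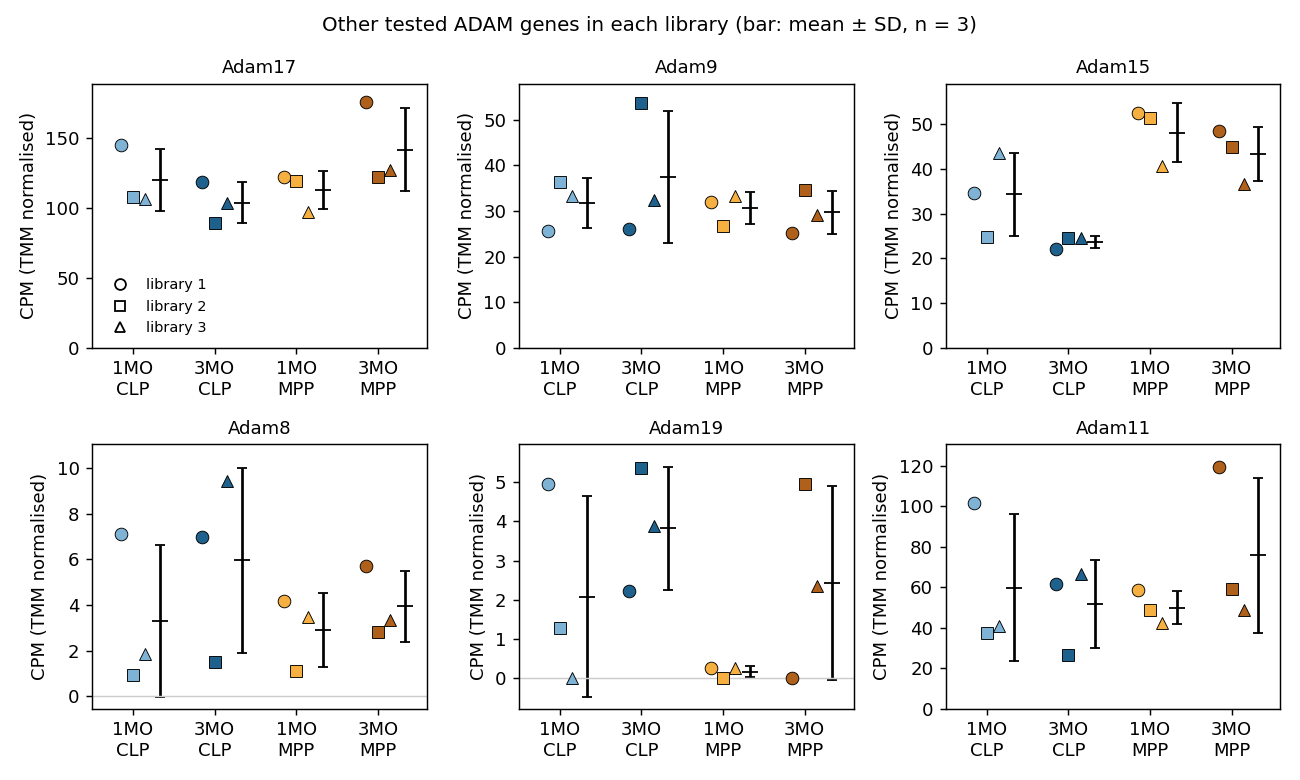
Levels in CPM (TMM normalised, vertical axes, separate scales) of 6 further ADAM genes in each library of the 4 groups (horizontal axes). Symbols are single libraries and bars the mean ± SD (n = 3). Adam15 in 3MO CLPs lies at 22.2 to 24.5 CPM, below the 36.6 to 48.4 CPM of 3MO MPPs.

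Counted over the comparisons, 0 of the 6 tested members other than Adam22 passed in MPPs with age, where 3 of 13367 genes (0.0224%) did. Of these 6 members, 1 (Adam19) had an unadjusted p under 0.05 there, as did 3.48% of all genes, and DESeq2 called 0 of the 6 and 32 genes. For the difference of age effects between the populations, 0 of these 6 members and 0 of 13367 genes (0%) passed edgeR's test, with 0 of the 6 and 429 genes at an unadjusted p under 0.05 and 0 of the 6 and 6 genes called by DESeq2. The median log2 difference of the 7 members was 0.24 in CLPs and 0.42 in MPPs with age, against -0.01 over all genes in each. Adam22 is 1 of these 7, and these medians leave out the members that did not pass the filter, so they describe the detected members only. With age in CLPs Adam22 (2.48) was the highest of the 7. The other 6 lay on both sides of 0, from -0.53 (Adam15) to 0.89 (Adam19).

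**Figure D3:**
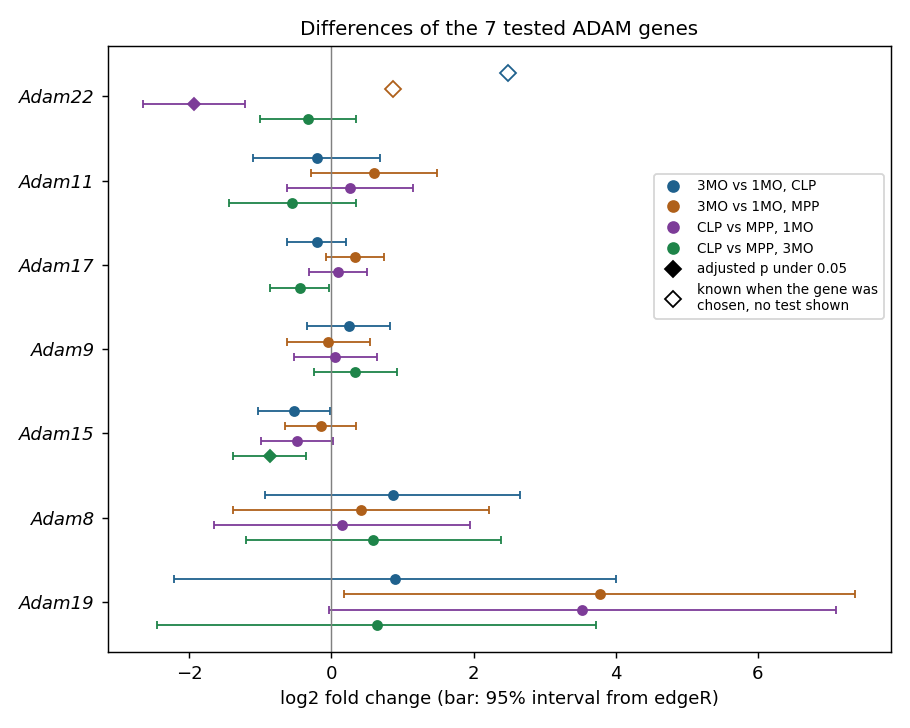
Log2 fold changes (horizontal axis) of the 7 tested ADAM genes (vertical axis) in 4 comparisons, with 95% intervals from edgeR. Filled diamonds are Adam22 at 1MO (-1.94) and Adam15 at 3MO (-0.87), both lower in CLPs than in MPPs with an adjusted p under 0.05. The Adam22 comparison at 1MO uses libraries of the contrast that chose the gene, so it is not independent of the choice. Open diamonds are the age differences of Adam22, shown without a test because they were known when the gene was chosen.

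Per kilobase of merged exons, Adam17 had the highest level of the family and Adam22 stood between Adam15 and Adam8. Averaged over the 12 libraries, the levels were 16.7 CPM per kb for Adam17, 10.5 for Adam11, 7.86 for Adam9, 6.08 for Adam15, 1.69 for Adam22, 0.869 for Adam8 and 0.298 for Adam19. The spread between libraries was wide enough that the SD bars of Adam11 met those of Adam9 in each group. In 1MO CLPs Adam22 was at 0.388 ± 0.118 CPM per kb, below the mean of Adam8 (0.712 ± 0.718), whereas in the other groups its mean of 1.48 to 2.72 lay above that of Adam8 (0.63 to 1.28). The order was not the same in every group, as Adam15 (7.83) lay above Adam9 (7.44) in 1MO MPPs. The lengths used also affect it: with the longest transcript in place of merged exons, Adam15 (9.55) came above Adam9 (8).

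**Figure D4:**
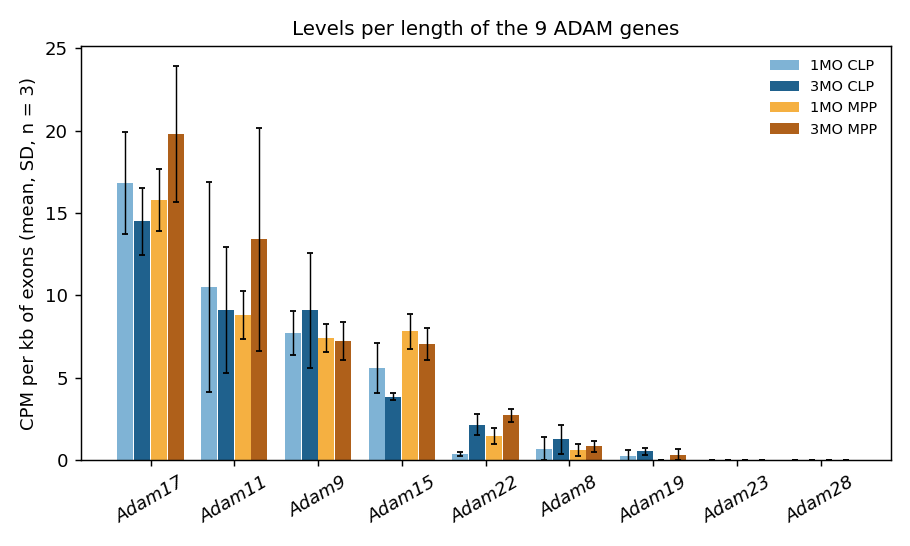
Mean level per kilobase of exons (vertical axis, CPM per kb, bars from 0, SD, n = 3) of the 9 ADAM genes (horizontal axis) in the 4 groups. Adam17 is at 14.5 to 19.8 and Adam22 at 0.388 to 2.72, while Adam23 and Adam28 are at or near 0.

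For the gene lists that follow, the shares over all 13367 tested genes were 0.0748% called and 5.9% at an unadjusted p under 0.05 with age in CLPs, 0.0224% and 3.48% with age in MPPs, and 0% and 3.21% for the difference of age effects. Between CLPs and MPPs they were 5.38% and 15.8% at 1MO and 6.07% and 19% at 3MO.

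Of 24 other ADAM genes examined, 13 were at 0 in all 12 libraries and 4 passed the filter (Adam1a, Adam2, Adam4 and Adam6b), of which 0 passed edgeR's test in any of the 5 comparisons (smallest adjusted p = 0.099). Adam2 between CLPs and MPPs at 3MO was the 1 result at an unadjusted p under 0.05, and DESeq2 called it. Several of the 24 are known for expression in testis. Of 19 ADAMTS genes, the secreted relatives, 7 were tested and 0 passed in edgeR, with 0 to 2 at an unadjusted p under 0.05 in each comparison and 1 called by DESeq2 (Adamts12, between CLPs and MPPs at 1MO).

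The extracellular partners of ADAM22 had few or no counts. The ligand genes Lgi1 and Lgi3 were at 0 in all libraries, Lgi2 had a count in 3 libraries (up to 1.54 CPM) and Lgi4 in 7 (up to 2.69 CPM). Of the 14 genes of LGI ligands, membrane-associated scaffolds and 14-3-3 proteins, 10 were tested and 0 passed in edgeR in any comparison, with 0 to 2 at an unadjusted p under 0.05 in each, against 3.21% to 19% of all genes, and DESeq2 called 1 (Dlg4, between CLPs and MPPs at 1MO). Dlg4, named after its values were seen because its protein anchors ADAM22 in neurons, was at 96.3, 72.9 and 50.4 CPM in 1MO CLPs and at 105.4, 142 and 130.1 CPM in 3MO CLPs. These libraries did not overlap, with a difference of 0.78 (SE 0.24) that did not pass (edgeR adjusted p = 0.6). In MPPs Dlg4 was at 126.8, 140.3 and 103.6 CPM at 1MO and at 156.9, 132.7 and 98.3 CPM at 3MO, overlapping, with a difference of 0.07 (SE 0.23). Its CLP-minus-MPP difference at 1MO was -0.76 (SE 0.24, edgeR adjusted p = 0.084). Across the 12 libraries its log2 CPM correlated with that of Adam22 at r = 0.78 (Pearson) and rho = 0.64 (Spearman), the 52nd highest r of 13366 genes, a description over libraries that share their group structure.

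Of the 7 genes of ADAM maturation and ADAM17 trafficking, 6 were tested and 0 passed in edgeR or DESeq2, with 1 at an unadjusted p under 0.05 with age in each population and 0 in the other comparisons. Among them Furin, the convertase that removes the inhibitory propeptide, was at 73.3 to 235.6 CPM, and the ADAM17 trafficking partners Frmd8 and Rhbdf2 were at 68.5 to 149.2 and 8.38 to 23.2 CPM. Of the 5 metalloproteinase inhibitors, Timp1 and Timp4 were at 0 in all libraries, Timp2, Timp3 and Reck were tested, and 0 passed in edgeR or DESeq2 or had an unadjusted p under 0.05.

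Several genes for known shed substrates differed between the populations. Of 19, 16 were tested, and 0 passed with age in edgeR, with 1 in CLPs and 3 in MPPs at an unadjusted p under 0.05 and 1 in MPPs called by DESeq2 (Kitl). These 3 stand against 3.48% of all genes. For the difference of age effects, 3 of the 16 had an unadjusted p under 0.05, against 3.21% of all genes, and 0 passed in edgeR or DESeq2. At 1MO 4 were higher and 1 was lower in CLPs than in MPPs, and at 3MO 3 were higher and 2 lower, where 5.38% and 6.07% of all genes passed. DESeq2 called 5 at 1MO and 6 at 3MO, with Cd44 added at 3MO. F11r, encoding the junctional molecule JAM-A, had CLP-minus-MPP differences of -2.11 (SE 0.49, edgeR adjusted p = 0.017) at 1MO and -4.06 (SE 0.54, edgeR adjusted p = 0.00026) at 3MO. Selplg, encoding the P-selectin ligand, was higher in CLPs by 0.93 at 1MO and 1.2 at 3MO on the log2 scale (edgeR adjusted p = 0.0076 and 0.0012). Alcam, an adhesion molecule, was lower in CLPs at 3MO, with a log2 difference of -1.2 (SE 0.22, edgeR adjusted p = 0.0035).

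Of 8 integrin subunits that pair with disintegrin domains, all were tested, and 0 passed with age in edgeR or DESeq2, with 2 in CLPs and 1 in MPPs at an unadjusted p under 0.05, as had 5.9% and 3.48% of all genes. Between the populations 2 of 8 passed in edgeR at each age, where 5.38% (1MO) and 6.07% (3MO) of all genes did. Itga4, which forms the receptor for VCAM-1, was higher in CLPs at 1MO (1.23, SE 0.17, edgeR adjusted p = 0.00028) and 3MO (1.2, SE 0.17, edgeR adjusted p = 0.00042). Itga6, a laminin receptor subunit, was lower in CLPs at 1MO (-1.25, edgeR adjusted p = 0.00039) and 3MO (-1.38, edgeR adjusted p = 0.00021). DESeq2 called these 2 at 1MO and 4 at 3MO, with Itga5 and Itga9 added (edgeR adjusted p = 0.078 and 0.065).

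The genes whose log2 CPM correlated best with that of Adam22 over the 12 libraries were Slco2a1 (r = 0.91), D930048N14Rik (0.90), Meaf6 (0.90), Gm16196 (0.89) and AC132307.1 (0.89), of 13366 genes ranked. These are descriptions: the libraries fall into 4 groups and were normalised together. Slco2a1 and Gm16196 had 0 counts in 2 of the 3 1MO CLP libraries. Meaf6, encoding a subunit of histone acetyltransferase complexes, was well detected, at 46.3 to 49.1 CPM in 1MO CLPs and 56.5 to 70.3 in 3MO CLPs. Ranked by Spearman's rho, 0 of these 5 genes were among the first 5. Among the family, Pearson's r with Adam22 ran from -0.11 (Adam9) to 0.46 (Adam8), and Spearman's rho from -0.26 (Adam9) to 0.55 (Adam11).

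The genes beside Adam22 on chromosome 5 did not pass the test in any comparison. Sri, encoding the calcium-binding protein sorcin, lies 2973 bp from it and had means of 72.6 CPM in 1MO CLPs and 71.8 CPM in 3MO CLPs (log2 difference -0.02, SE 0.24, edgeR adjusted p = 1). Dbf4, encoding the activator of the Cdc7 replication kinase, lies 28813 bp from it and differed with age by 0.09 (SE 0.22) in CLPs and -0.09 (SE 0.22) in MPPs. Slc25a40, a mitochondrial carrier gene 54690 bp away, differed by 0.55 (SE 0.42, edgeR adjusted p = 0.92) in CLPs and 0.82 (SE 0.42, edgeR adjusted p = 1) in MPPs. Steap4, beyond Sri on the same side, was at 0.27 CPM at most and was not tested.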

How the data were processed

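Polyadenylated RNA was made into libraries with a directional kit. The authors deposited 1 table of estimated counts per gene from Salmon, scaled for transcript length and not for depth, after FastQC, UMI-tools, Trim Galore and STAR per the submitters' processing notes, which name the mm10 build. All 12 columns were matched to samples by title. The counts (43.1% of values not whole) were rounded. All 4 groups entered 1 fit in R 4.3.3 with edgeR 4.0.16 (filterByExpr, TMM, quasi-likelihood test, Benjamini-Hochberg over 13367 genes, threshold 0.05) and limma 3.58.1. The test was checked on simulated counts. CPM correlations used a prior count of 2. Genes named were all members, the 5 most correlated with Adam22, 2 neighbours on each side, and up to 4 called genes per list. Members and lists were chosen with earlier results of these data known. Alternatives were DESeq2 1.42.0 (size factors, Wald test), other filters, fits of the compared libraries only, thinning to the smallest library, replicate blocks and leaving out each library. Exon overlaps and lengths came from GENCODE M21. Protein sequences were not used here. 1 called gene of the substrate list is not reported here.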

Additional observations from a re-analysis of the deposited data

How the results depend on the processing

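Genes called with age moved most with the processing. Without a filter on low counts, edgeR called 46 genes in CLPs, 26 in MPPs and 6 for the interaction, and with at least 10 counts in every library 4 and 1 in CLPs and MPPs. DESeq2's Wald test called 57, 32 and 6, and 1175 and 1371 for CLPs against MPPs at 1MO and 3MO. Fits of only the compared libraries called 4 genes with age in CLPs and 435 for CLPs against MPPs at 3MO, and 0 members in either (the log2 age difference of Adam22 in CLPs there was 2.48). Adam15 was not called at 3MO (0 members) in that fit, after thinning, or with CLPs and MPPs of 1 number as pairs in a replicate block (edgeR adjusted p = 0.095, 0.066 and 0.067). Leaving out 1 library gave 6 to 10 genes with age in CLPs (6 without 1MO CLP library 1 or 3MO CLP library 2), 3 to 5 in MPPs (5 without 3MO MPP library 2), 0 to 1 for the interaction, 460 to 887 at 1MO, 553 to 881 at 3MO, and 0 to 1 members at 3MO. Adam22 at 1MO kept its call throughout, with edgeR adjusted p up to 0.014. That comparison reuses libraries of the contrast that chose Adam22, so its call is not independent of the choice. No called member changed sign.

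A replicate block by number called 11, 3 and 0 genes for age in CLPs, age in MPPs and the interaction, and 915 and 1007 at 1MO and 3MO, and changed no call of a member. Deviations of same-numbered libraries from their group means correlated at -0.05 to 0.21. Correlations over all genes cannot decide whether equal numbers share a mouse or an experiment. The hemoglobin gene Hbb-bs was highest in library 3 of every group (29.8 to 52.2 CPM, against at most 10.3 CPM in the others). The main fit took no pairs, because no source used here ties the numbers to mice. Between 1MO and 3MO CLP libraries of the same number, the deviations correlated at 0.13, 0.06 and -0.01 (numbers 1 to 3). Within 1MO CLPs the log2 CPM of library pairs correlated at 0.928 to 0.955, and within 3MO CLPs at 0.92 to 0.938. Per-kilobase levels with the longest transcript were 26.8 for Adam17 and 9.55 for Adam15, and 0 of the 5 genes most like Adam22 were shared between Pearson and Spearman rankings. With 3 libraries per group, genes as sparse as Adam8 and Adam19 have intervals several log2 units wide.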
